A study of Mus musculus with 12 samples.

Results

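The genes described here are those that build cholesterol and long-chain fatty acids, together with the regulators that set their transcription. They were chosen by name from a list of 32 genes, of which 30 had a row among the 22935 genes of the deposited tables. The 30 were 18 enzymes of the sterol branch, 6 genes that control the pathway and 6 enzymes of the fatty acid branch. Scd1 and Fads2 were not analysed here.

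BV2, an immortalised line of mouse microglia, gave the RNA for 3 groups of 3 libraries with counts. The first group received oxy-Hb with C3a, at the label's 10 uM and 20 ug/ul. The second received oxy-Hb at 10 uM with C3aRA at 50 uM, and the third oxy-Hb at 10 uM alone. Oxy-Hb is the oxygenated haemoglobin that red cells release, and C3a is the peptide cut from complement component C3 that binds the receptor C3aR. The labels do not spell out C3aRA, and the C3a unit is uncertain, since the dose as written would be very high for a peptide. Every group analysed here carried oxy-Hb, so the comparisons concern the additions and not oxy-Hb itself. The series also has 3 PBS samples, not analysed here. No label gives an exposure time, and none says that replicates were separate cultures, so the p-values below reflect the spread among these libraries, part or all of which may be technical. BV2 is a cell line and not a microglial cell taken from brain.

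Cholesterol is made from acetyl-CoA through mevalonate, squalene and lanosterol, and fatty acids from the same acetyl-CoA through malonyl-CoA. Transcription of both branches is driven by the SREBP factors, which the chaperone encoded by Scap carries out of the endoplasmic reticulum when membrane sterol is low and which the Insig proteins hold back when it is high. The product of Srebf2 acts mainly on the sterol branch and that of Srebf1 mainly on the fatty acid branch. In microglia and macrophages these genes are known for supplying membranes and for handling the lipid of engulfed cells and myelin.

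Library totals ran from 12934794 to 20479002 counts. Of the 11 microglia or macrophage markers, 10 were above 1 CPM (counts scaled to a common library size) in every library, and their summed level was 2326 to 2709 CPM in C3a libraries, 2191 to 2353 CPM in C3aRA libraries and 2032 to 2191 CPM in oxy-Hb libraries. The homeostatic microglia markers were nearly silent, at a summed 1.65 to 5.66 CPM, with Siglech at 0 in every library. Markers of other cell types were few in the tables: 1 of 5 for astrocytes (Gfap), 1 of 5 for neurons (Tubb3), 1 of 5 for endothelial cells or fibroblasts (Pecam1) and 2 of 4 for red cells had a row. Those of each of these types summed to at most 1.66 CPM in every library. C3a replicate 2 stood apart: on the leading principal component of all genes it lay at -76.3, against -10.8 to 23.8 for the other 8 libraries. Results are therefore given with and without that library wherever it changes them. In RNA from a bulk culture, fewer cells that express a gene and less RNA per cell cannot be told apart.

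Start-site windows are shown for 4 sterol enzymes called below as higher with C3a than with C3aRA, and for Fasn. In Fasn, a fatty acid enzyme, every library with an addition was below every oxy-Hb library. Neither of its comparisons with oxy-Hb was called with 9 libraries. The windows are RefSeq sequences of each gene's sense strand, build GRCm38.p6, from 250 bases before to 50 bases after the start of transcription. Capitals mark 3 motifs searched on both strands. The first is the sterol element TCACNCCAC, bound by SREBP factors. The second is the NF-Y box CCAAT, which reads as ATTGG when it lies on the other strand. The third is the E-box CACGTG, its own reverse complement. Hmgcs1 lies on the plus strand at chr13:119690101-119690400, Msmo1 on the minus strand at chr8:64733529-64733828, Hsd17b7 on the minus strand at chr1:169969156-169969455, Sc5d on the minus strand at chr9:42264251-42264550 and Fasn on the minus strand at chr11:120824498-120824797.
Hmgcs1: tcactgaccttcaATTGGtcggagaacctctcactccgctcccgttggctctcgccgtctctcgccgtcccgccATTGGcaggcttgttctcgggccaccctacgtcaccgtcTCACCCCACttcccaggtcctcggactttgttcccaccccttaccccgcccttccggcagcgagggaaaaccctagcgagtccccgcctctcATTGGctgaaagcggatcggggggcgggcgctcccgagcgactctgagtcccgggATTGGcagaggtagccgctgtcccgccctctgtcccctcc
Msmo1: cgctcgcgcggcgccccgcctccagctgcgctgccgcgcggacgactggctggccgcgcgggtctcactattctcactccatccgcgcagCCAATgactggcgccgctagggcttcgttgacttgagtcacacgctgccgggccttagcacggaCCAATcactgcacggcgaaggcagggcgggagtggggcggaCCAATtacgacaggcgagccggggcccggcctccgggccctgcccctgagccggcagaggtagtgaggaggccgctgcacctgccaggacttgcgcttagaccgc
Hsd17b7: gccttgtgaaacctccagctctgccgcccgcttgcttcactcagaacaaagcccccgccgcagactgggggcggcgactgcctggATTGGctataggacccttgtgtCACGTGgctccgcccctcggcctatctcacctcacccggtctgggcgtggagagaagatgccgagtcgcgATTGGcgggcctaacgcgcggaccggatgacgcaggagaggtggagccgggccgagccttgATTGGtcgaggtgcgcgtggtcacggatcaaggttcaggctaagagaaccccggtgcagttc
Sc5d: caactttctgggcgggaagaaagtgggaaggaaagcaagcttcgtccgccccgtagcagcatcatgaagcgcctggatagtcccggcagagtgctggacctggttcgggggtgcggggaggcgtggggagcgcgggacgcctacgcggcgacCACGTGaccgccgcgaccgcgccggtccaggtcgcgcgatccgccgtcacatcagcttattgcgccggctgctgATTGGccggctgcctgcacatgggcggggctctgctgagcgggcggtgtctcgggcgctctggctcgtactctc
Fasn: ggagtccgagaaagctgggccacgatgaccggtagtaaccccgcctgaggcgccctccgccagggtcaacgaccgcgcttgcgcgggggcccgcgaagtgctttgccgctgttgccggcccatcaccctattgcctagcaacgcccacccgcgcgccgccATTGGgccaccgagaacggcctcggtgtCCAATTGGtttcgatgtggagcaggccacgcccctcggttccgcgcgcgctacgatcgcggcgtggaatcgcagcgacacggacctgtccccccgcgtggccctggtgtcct

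Hmgcs1 held the sterol element once, 137 bases before its start, and 4 NF-Y boxes. Msmo1 and Hsd17b7 each held 3 NF-Y boxes, Sc5d held 1, and Fasn held 3, of which a forward and a reverse copy overlap in the run CCAATTGG. Hsd17b7 and Sc5d also held 1 E-box each. Of the other sterol enzymes called below, Acat2 has a window, not shown, that held none of these motifs, and Sqle has no window. Windows were matched for 24 of the 30 members, which had 32 windows because some genes have several starts. Of those 32, 21 (65.6%) held an NF-Y box, against 37.4% of all 32851 windows in the table. The E-box was present in 6 (18.8%), against 7.15% of all windows, and the sterol element in 1 (3.12%), against 1.24%. A match of letters is a description of the window and does not show binding, and a window without these letters says nothing about the factor.

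**Figure D1:**
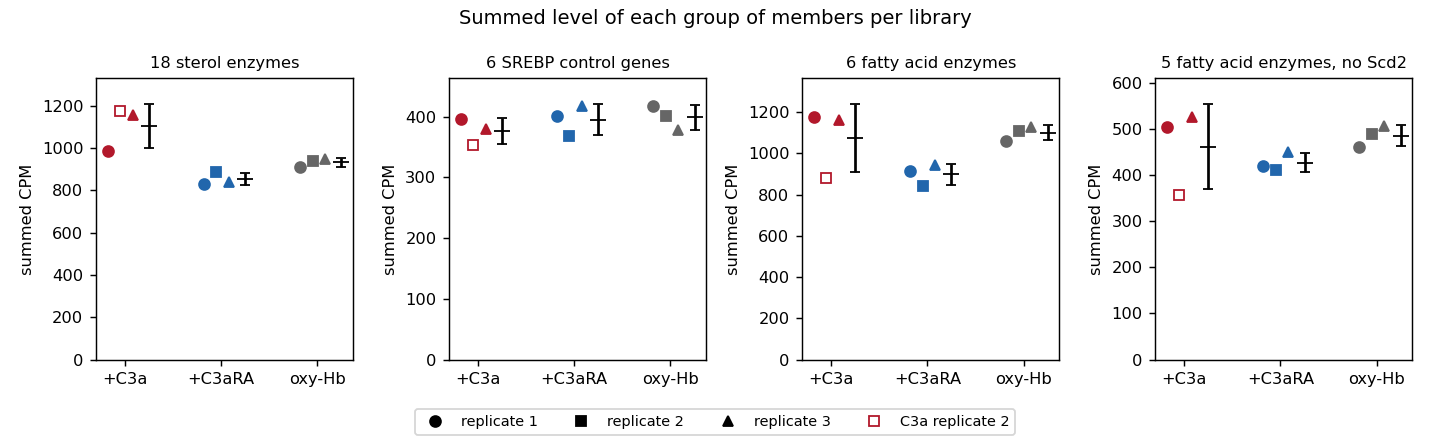
Summed CPM per library of the sterol enzymes, the control genes, the fatty acid enzymes and the fatty acid enzymes without Scd2, for oxy-Hb+C3a, oxy-Hb+C3aRA and oxy-Hb. Points are libraries, the open square is C3a replicate 2, and bars show mean and SD of 3 libraries. The 3 C3a libraries have the highest sterol sums (986 to 1174 CPM), and C3a replicate 2 is low in the fatty acid panels (882 CPM for the 6 enzymes).

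The 18 sterol enzymes together made up 986, 1174 and 1154 CPM in the C3a libraries, 830, 885 and 840 CPM in the C3aRA libraries and 908, 937 and 949 CPM in the oxy-Hb libraries. Every C3a library was above every oxy-Hb library, and every C3aRA library was below all of them. The 8 enzymes from lanosterol onwards summed to 532 ± 66.9 CPM with C3a, 381 ± 18.1 CPM with C3aRA and 442 ± 19.2 CPM with oxy-Hb (SD, n = 3 each). The 6 fatty acid enzymes summed to 1174, 882 and 1163 CPM with C3a, 913, 843 and 942 CPM with C3aRA, and 1059, 1109 and 1130 CPM with oxy-Hb. The C3aRA libraries were again below all oxy-Hb libraries, whereas the C3a libraries lay on both sides of them, with replicate 2 the low one. The 6 control genes summed to 376 ± 21.8 CPM with C3a, 395 ± 25.6 CPM with C3aRA and 399 ± 20.4 CPM with oxy-Hb (SD, n = 3 each), and these groups overlapped. Without C3a replicate 2 the C3a means were 1069.8 CPM for the sterol enzymes, 1169 CPM for the fatty acid enzymes and 388 CPM for the control genes. A sum is carried by its most abundant members, and Scd2 alone gave more than any other fatty acid enzyme.

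Per base of exon, the members differed widely in level. With oxy-Hb alone, Scd2, a stearoyl-CoA desaturase that makes monounsaturated fatty acids, had 112 ± 2.45 RPKM, which is CPM per kilobase of exon, the highest of the 30. It was followed by Acly, the citrate lyase that supplies acetyl-CoA, at 34.8 ± 2.46 RPKM and by Msmo1, the methylsterol oxidase, at 29.9 ± 0.723 RPKM (SD, n = 3 each). The lowest were Fdps, farnesyl diphosphate synthase, at 1.23 ± 0.201 RPKM and Tm7sf2, a sterol reductase, at 1.27 ± 0.235 RPKM (SD, n = 3 each). All 30 members passed the filter on low counts, and the smallest count of any member was 54, in Tm7sf2.

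The first comparison set C3a on top of oxy-Hb against oxy-Hb alone, the effect of added complement peptide. No member passed an adjusted p of 0.05 in the edgeR quasi-likelihood test of all 9 libraries, against 3.94% of the 14146 genes tested. At an unadjusted p below 0.05, 10 of the 30 members passed, where 24.1% of all genes did so. The median log2 fold change was 0.20 over the sterol enzymes, -0.10 over the control genes and -0.01 over the fatty acid enzymes, beside 0.00 over all genes tested. Of the sterol enzymes 14 of 18 were above 0, of the control genes 3 of 6 and of the fatty acid enzymes 2 of 6. Groups that did not overlap were found for 4 members in the higher direction (Hmgcs1, Acat2, Idi1 and Sqle), where 13.2% of all genes did so. In the lower direction there were 3 (Tm7sf2, Scap and Fasn), where 14.6% of all genes did so. The count of 0 called members became 6 without C3a replicate 1 (11.2% of all genes called), 4 without C3a replicate 2 (9.55%) and 1 without C3a replicate 3 (3.04%). DESeq2 called 4 with all libraries (10.1% of all genes). Calls over all genes rose in 3 of these 4 fits as well.

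The second comparison set C3aRA on top of oxy-Hb against oxy-Hb alone. No member passed in edgeR's test of all 9 libraries, nor did any of the 14146 genes (0%), although 1153 genes (8.15%) had an unadjusted p below 0.05, 5 of them members. DESeq2 called 19 genes and no member. The null depended on a library outside this comparison. Without C3a replicate 2, 475 of 14613 genes were called and 4 members, all lower (1.38% of all genes lower). With the 2 groups fitted alone, 603 of 13625 genes were called and 5 members, all lower (1.94% lower). The median log2 fold change was -0.08 over the sterol enzymes, -0.05 over the control genes and -0.21 over the fatty acid enzymes, beside -0.01 over all genes. Only 6 of the 30 members were above 0, 2 of them sterol enzymes. In 11 members every C3aRA library was below every oxy-Hb library, where 11% of all genes did so, and in 0 members was every C3aRA library above, where 11.9% of all genes did so. The 11 were Hmgcs1, Acat2, Sqle, Tm7sf2, Msmo1, Hsd17b7 and Sc5d of the sterol branch and Fasn, Scd2, Elovl6 and Fads1 of the fatty acid branch. Both additions were compared with the same 3 oxy-Hb libraries, so these comparisons are not independent.

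The third comparison set C3a against C3aRA, both on top of oxy-Hb. Here 6 of the 30 members were higher with C3a in edgeR's test of all 9 libraries, against 2.87% of all genes in that direction and 6.19% in either direction. All 6 were sterol enzymes (6 of 18), and none of the 6 control genes or the 6 fatty acid enzymes passed. Whether the branches differed was not tested. The median log2 fold change was 0.21 over the sterol enzymes, -0.07 over the control genes and 0.19 over the fatty acid enzymes, beside 0.01 over all genes. The fatty acid median was 0.29 without C3a replicate 2, with 5 of 6 above 0, and 0.36 once values were corrected for the length and GC content of transcripts, where all genes had medians of -0.01 and 0.04. Every C3a library was above every C3aRA library in 8 members, where 14.1% of all genes did so, and below in 3 (Srebf2, Scap and Acaca), where 14.7% did so. A test for any difference among the 3 groups called 5 members, Acat2, Hsd17b7, Msmo1, Sc5d and Hmgcs1, against 4.63% of all genes.

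**Figure D2:**
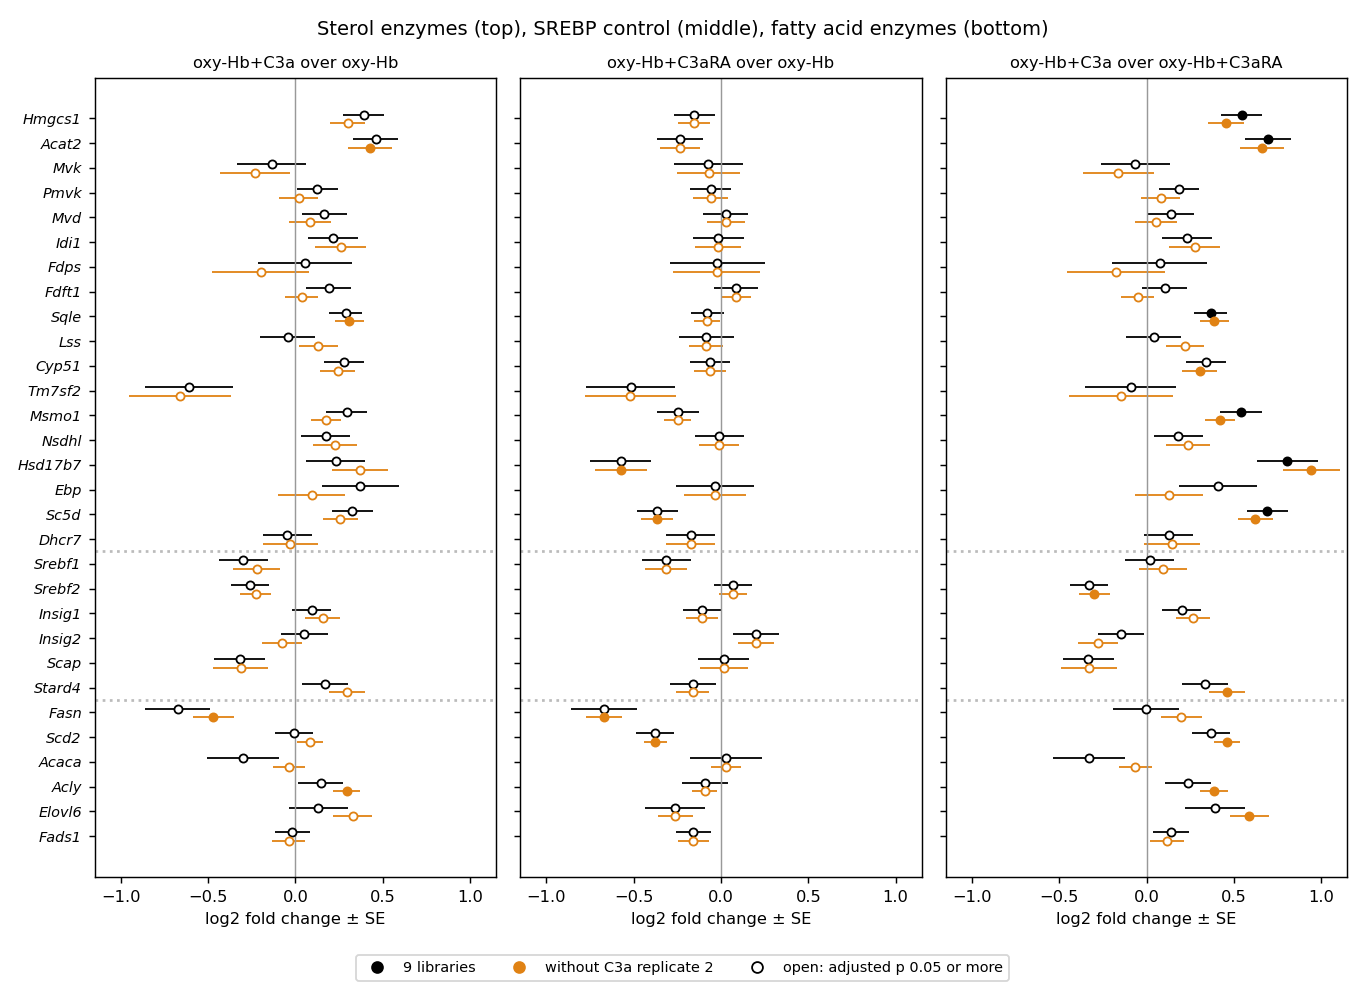
Log2 fold change with its SE for each of the 30 members in the 3 comparisons, from edgeR fits of 9 libraries (black) and without C3a replicate 2 (orange). Filled points have an adjusted p below 0.05. With 9 libraries, filled points are found in the panel of oxy-Hb+C3a over oxy-Hb+C3aRA alone, for 6 sterol enzymes, the largest being Hsd17b7 at 0.81.

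The count of 6 depended on single libraries. Without C3aRA replicate 1 none of the 30 members was called (0.361% of all genes called). There were 2 without C3a replicate 3 (2.88%), C3aRA replicate 2 (1.19%) or C3aRA replicate 3 (1.02%). Without C3a replicate 2 there were 11 higher and 1 lower (12.5% of all genes called), and without C3a replicate 1 there were 9 in all (11.4%). When only these 2 groups were fitted, Sc5d alone was called, against 0.875% of genes. The direction of all 6 was the same in each of the 20 alternatives. The 5 calls of the test for any difference were 0 without C3aRA replicate 1 (1.1% of all genes called) or 3 (1.29%). They were 1 without C3aRA replicate 2 (1.48%), oxy-Hb replicate 1 (1.27%) or oxy-Hb replicate 2 (1.36%), and 2 without C3a replicate 3 (2.13%) or oxy-Hb replicate 3 (2.43%). They were 12 without C3a replicate 2 (15.5%).

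Hmgcs1 (ENSMUSG00000093930, chr13:119690379-119708260 of GRCm38) encodes the cytosolic HMG-CoA synthase that opens the mevalonate pathway. Its level was 80.0, 106 and 99.6 CPM with C3a, 67.4, 66.4 and 62.0 CPM with C3aRA, and 68.4, 75.1 and 74.2 CPM with oxy-Hb. All C3a libraries were above all others, and all C3aRA libraries below all oxy-Hb libraries. Hmgcs1 was higher with C3a than with C3aRA by a log2 fold change of 0.54 ± 0.12 (SE; adjusted p = 0.0195, edgeR). Against oxy-Hb the log2 fold change was 0.39 ± 0.12 for C3a (adjusted p = 0.0730) and -0.15 ± 0.12 for C3aRA (adjusted p = 0.771).

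Acat2 (ENSMUSG00000023832, chr17:12942890-12960747) encodes the cytosolic thiolase that joins acetyl-CoA units ahead of that step. It had 44.6, 53.6 and 56.7 CPM with C3a, 27.9, 33.3 and 34.3 CPM with C3aRA, and 35.3, 36.4 and 41.0 CPM with oxy-Hb. The 3 groups did not overlap, in the order C3a, oxy-Hb, C3aRA. Acat2 was 1.62-fold higher with C3a than with C3aRA (log2 0.70 ± 0.13 SE, adjusted p = 0.0113, edgeR). Against oxy-Hb it had a log2 fold change of 0.46 ± 0.13 with C3a (adjusted p = 0.0625) and -0.24 ± 0.13 with C3aRA (adjusted p = 0.682). Without C3a replicate 2, Acat2 was called as higher with C3a than with oxy-Hb (4% of all genes higher). The related Acat3 had at most 22 counts in any library.

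Sqle (ENSMUSG00000022351, chr15:59315077-59331192) encodes squalene epoxidase, a rate-limiting enzyme of the later pathway. Its level was 136, 132 and 142 CPM with C3a, 109, 99.7 and 108 CPM with C3aRA, and 115, 110 and 111 CPM with oxy-Hb. The C3a libraries stood clear of both other groups, which lay close to each other. Sqle was higher with C3a than with C3aRA by a log2 fold change of 0.37 ± 0.09 (SE; adjusted p = 0.0369, edgeR), called again in 2 of the 9 leave-one-out fits, those without C3a replicate 1 or 2. Against oxy-Hb the log2 fold change with C3a was 0.29 ± 0.09 (adjusted p = 0.0929). This comparison passed without C3a replicate 2 (4% of all genes higher). Sqle has no window in the promoter table.

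Cyp51 encodes the lanosterol demethylase that starts the post-lanosterol steps. It had 84.6, 101 and 105 CPM with C3a, 75.5, 78.8 and 75.3 CPM with C3aRA, and 71.0, 83.8 and 84.8 CPM with oxy-Hb. C3a and C3aRA libraries did not overlap, although the log2 fold change between them of 0.34 ± 0.11 (SE) did not pass with 9 libraries (adjusted p = 0.0900, edgeR) and did so without C3a replicate 2 (0.30, adjusted p = 0.0422). Cyp51 overlaps Akap9 on the opposite strand.

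Msmo1 (ENSMUSG00000031604, chr8:64718139-64733792) encodes the oxidase that removes methyl groups from sterol intermediates. It had 186, 260 and 231 CPM with C3a, 148, 166 and 151 CPM with C3aRA, and 180, 184 and 188 CPM with oxy-Hb. C3aRA libraries were below every other library, while the lowest C3a library lay within the oxy-Hb range. Msmo1 was higher with C3a than with C3aRA by a log2 fold change of 0.54 ± 0.12 (SE; adjusted p = 0.0206, edgeR). Against oxy-Hb it was 0.29 ± 0.12 with C3a (adjusted p = 0.151) and -0.25 ± 0.12 with C3aRA (adjusted p = 0.612). In a fit of the C3aRA and oxy-Hb groups alone Msmo1 was called as lower with C3aRA (1.94% of all genes lower).

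Hsd17b7 (ENSMUSG00000026675, chr1:169949535-169969241) encodes the sterol ketoreductase that works after Nsdhl. Its level was 21.6, 17.5 and 27.3 CPM with C3a, 12.4, 12.1 and 13.4 CPM with C3aRA, and 17.5, 17.7 and 21.3 CPM with oxy-Hb. C3aRA libraries were below all others, and C3a and oxy-Hb libraries overlapped. The difference between C3a and C3aRA was a log2 fold change of 0.81 ± 0.17 (SE; adjusted p = 0.0191, edgeR), the largest of the called members. Against oxy-Hb it was 0.23 ± 0.17 with C3a (adjusted p = 0.418) and -0.57 ± 0.17 with C3aRA (adjusted p = 0.479). Hsd17b7 was called as lower with C3aRA than with oxy-Hb without C3a replicate 2 (1.38% of all genes lower). It was also called so in a fit of those groups alone (1.94% lower).

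Sc5d (ENSMUSG00000032018, chr9:42251595-42264256) encodes the lathosterol desaturase that acts just before Dhcr7. It had 91.3, 113 and 109 CPM with C3a, 64.3, 67.7 and 62.1 CPM with C3aRA, and 78.9, 78.0 and 93.1 CPM with oxy-Hb. The C3aRA libraries were the lowest 3 of the 9. Sc5d was 1.61-fold higher with C3a than with C3aRA (log2 0.69 ± 0.12 SE, adjusted p = 0.00796, edgeR), the lowest adjusted p of any member. Sc5d and Acat2 kept their calls in 8 of the 9 leave-one-out fits, failing without C3aRA replicate 1. Against oxy-Hb the log2 fold change was 0.33 ± 0.12 with C3a (adjusted p = 0.111) and -0.36 ± 0.12 with C3aRA (adjusted p = 0.479). Sc5d was called as lower with C3aRA than with oxy-Hb without C3a replicate 2 (1.38% of all genes lower). It was also called so in a fit of those groups alone (1.94% lower).

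**Figure D3:**
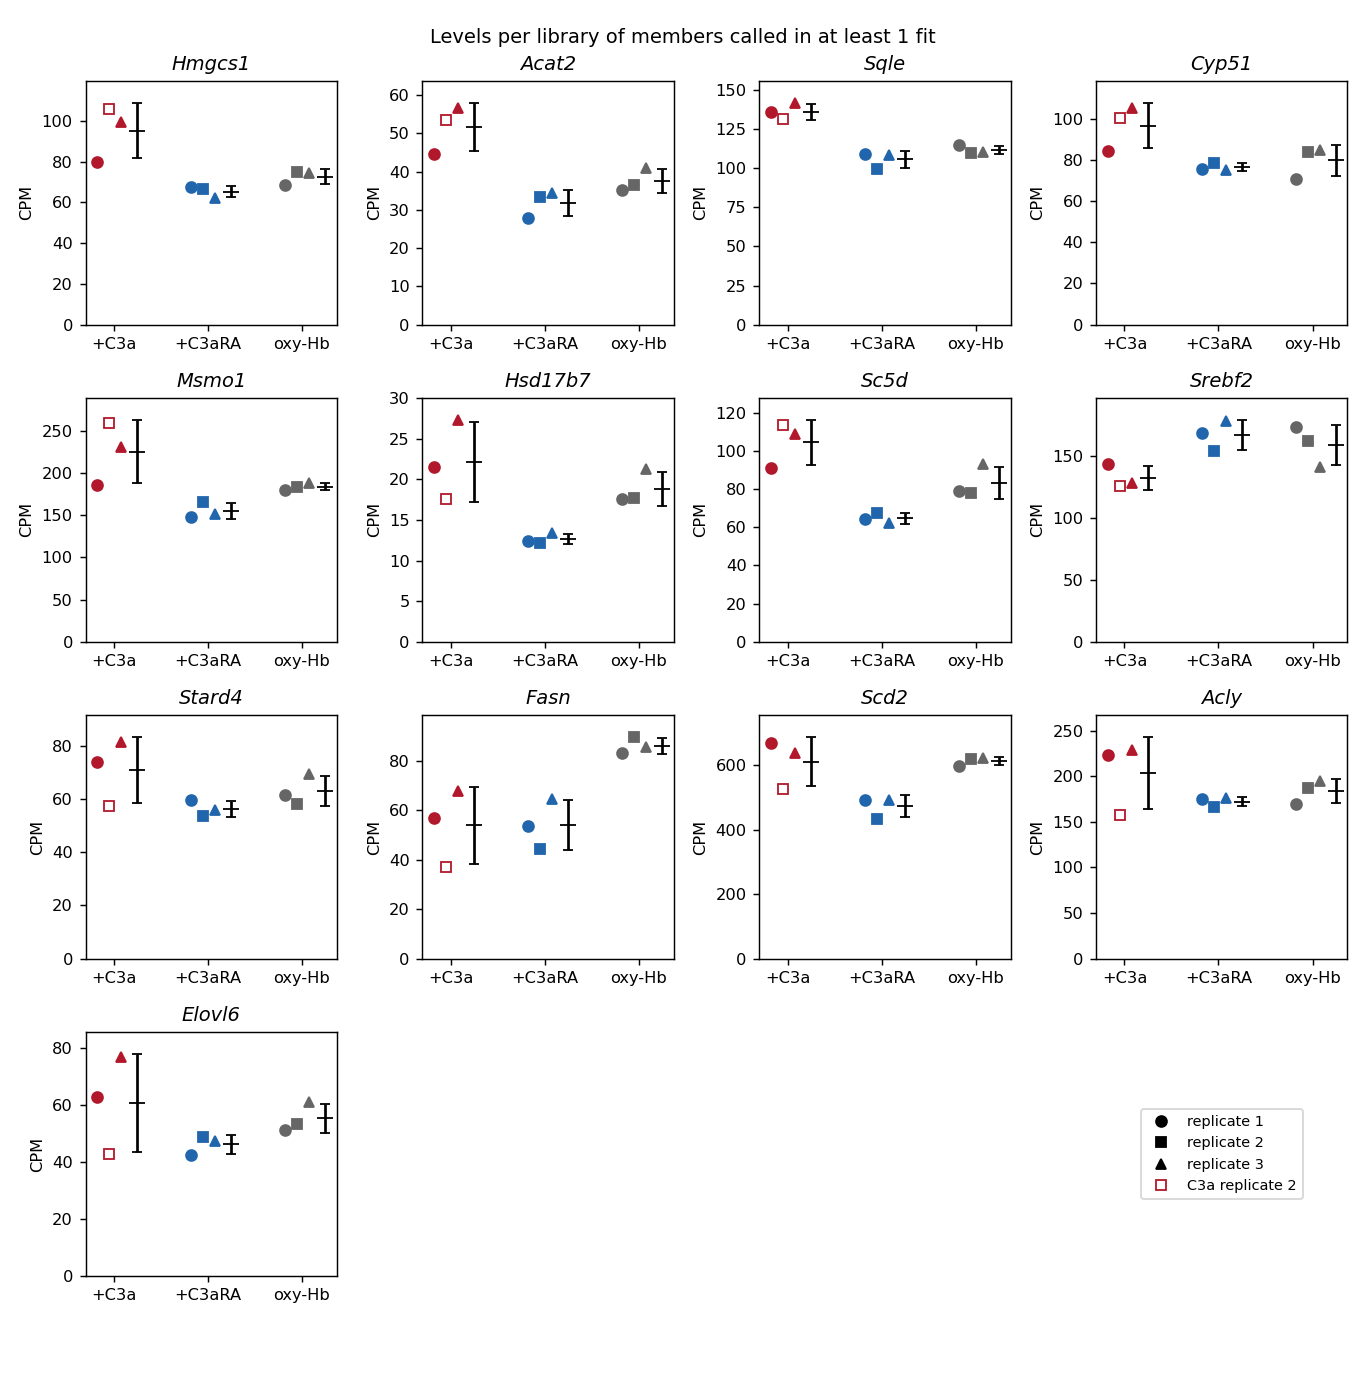
CPM per library of the 13 members called in at least 1 of the fits of 9 libraries, of 2 groups alone or without C3a replicate 2, for oxy-Hb+C3a, oxy-Hb+C3aRA and oxy-Hb. Points are libraries (the open square is C3a replicate 2) and bars show mean and SD of 3 libraries. In Acat2 the 3 groups are separate, and in Fasn all 6 libraries with an addition (37.2 to 67.8 CPM) are below the 3 oxy-Hb libraries (83.03 to 89.4 CPM).

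The remaining 11 sterol enzymes passed in no comparison with 9 libraries, with 2 groups alone or without C3a replicate 2. Of these, Ebp was called as higher with C3a, against oxy-Hb and against C3aRA, when C3a replicate 1 was left out. Mevalonate kinase (Mvk), phosphomevalonate kinase (Pmvk) and mevalonate diphosphate decarboxylase (Mvd) averaged 11.02, 46.6 and 47.5 CPM with C3a, 11.5, 41.0 and 43.1 CPM with C3aRA, and 12.1, 42.7 and 42.3 CPM with oxy-Hb. The isomerase Idi1 averaged 26.4 ± 3.78 CPM with C3a, 22.6 ± 2.57 CPM with C3aRA and 22.8 ± 0.670 CPM with oxy-Hb (SD, n = 3 each). Fdps averaged 5.36, 5.12 and 5.17 CPM in C3a, C3aRA and oxy-Hb libraries, and its count is uncertain because near-identical pseudogene copies can share its reads. Squalene synthase (Fdft1) averaged 100 CPM with C3a, 93.6 CPM with C3aRA and 88.1 CPM with oxy-Hb, but it overlaps Ctsb on the other strand, which stood at 2975 CPM. Without a stated strand setting, the reads of such pairs cannot be told apart.

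Among the later steps, lanosterol synthase (Lss) averaged 52.4 ± 12.2 CPM with C3a, 50.9 ± 2.72 CPM with C3aRA and 54.0 ± 6.33 CPM with oxy-Hb (SD, n = 3 each). Tm7sf2 averaged 3.67 ± 0.269 CPM with C3a, 3.92 ± 0.698 CPM with C3aRA and 5.60 ± 1.04 CPM with oxy-Hb (SD, n = 3 each), with log2 fold changes against oxy-Hb of -0.61 (adjusted p = 0.162) and -0.52 (adjusted p = 0.615, both edgeR). It overlaps Vps51 on the same strand, so its count is uncertain. Nsdhl, a sterol dehydrogenase, averaged 45.1, 39.7 and 40.0 CPM in C3a, C3aRA and oxy-Hb libraries. The isomerase Ebp averaged 15.7, 11.9 and 12.2 CPM, and the last reductase Dhcr7 18.1, 16.6 and 18.7 CPM, in the same order of groups.

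The transcription factors have their own genes among the 30, and neither passed with 9 libraries. Srebf2 had 144, 126 and 129 CPM with C3a, 168, 154 and 178 CPM with C3aRA, and 173, 162 and 141 CPM with oxy-Hb. Every C3a library was below every C3aRA library, and the C3a and oxy-Hb libraries overlapped. The log2 fold change of C3a over C3aRA was -0.33 ± 0.11 (SE; adjusted p = 0.0857, edgeR), and without C3a replicate 2 it was -0.30 and passed (adjusted p = 0.0239). With the correction for transcript length and GC content it was -0.11 (adjusted p = 0.406). Against oxy-Hb the log2 fold change of Srebf2 with C3a was -0.26 ± 0.11 (SE; adjusted p = 0.166, edgeR), and the same correction turned it to 0.07 (adjusted p = 0.604). The median over all genes in C3a against oxy-Hb was 0.00 before that correction and 0.095 after it. Srebf1 had 32.5, 25.7 and 29.2 CPM with C3a, 29.7, 26.0 and 30.6 CPM with C3aRA, and 38.2, 38.9 and 30.3 CPM with oxy-Hb. Its groups overlapped in all 3 comparisons, with log2 fold changes against oxy-Hb of -0.30 ± 0.14 for C3a (SE; adjusted p = 0.210) and -0.31 ± 0.14 for C3aRA (adjusted p = 0.605). Under the same correction the value for C3a was -0.00042. Srebf1 overlaps Rai1 on the opposite strand at a similar level.

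Insig1, the sterol-sensing retention protein that is itself a target of the factors, had 77.6, 69.3 and 82.97 CPM with C3a, 68.9, 59.9 and 71.0 CPM with C3aRA, and 68.4, 74.4 and 72.4 CPM with oxy-Hb. These groups overlapped, and the log2 fold change of C3a over C3aRA was 0.20 ± 0.11 (SE; adjusted p = 0.285, edgeR). Its relative Insig2 averaged 50.3 ± 8.44 CPM with C3a, 55.8 ± 3.997 CPM with C3aRA and 48.6 ± 3.94 CPM with oxy-Hb (SD, n = 3 each). Scap had 17.7, 16.5 and 16.0 CPM with C3a, 18.8, 22.1 and 22.4 CPM with C3aRA, and 23.7, 20.5 and 18.4 CPM with oxy-Hb. The C3a libraries were below all others, with a log2 fold change against oxy-Hb of -0.32 ± 0.15 (SE; adjusted p = 0.198, edgeR) that was -0.01 after the length and GC correction. All genes had a median of 0.095 in that corrected comparison. Stard4, a carrier of cholesterol between membranes, had 74.0, 57.3 and 81.2 CPM with C3a, 59.4, 53.6 and 55.7 CPM with C3aRA, and 61.4, 58.2 and 69.2 CPM with oxy-Hb. C3a replicate 2 was the low one there, and without it Stard4 was higher with C3a than with C3aRA (log2 0.46 ± 0.10 SE, adjusted p = 0.00253, edgeR), against 0.33 (adjusted p = 0.144) with all 9.

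Fasn (ENSMUSG00000025153, chr11:120805846-120824547), the synthase that assembles palmitate, was low in every library with an addition, though not past the threshold with all 9 libraries. It had 56.9, 37.2 and 67.8 CPM with C3a, 53.6, 44.3 and 64.3 CPM with C3aRA, and 83.03, 89.4 and 85.5 CPM with oxy-Hb. All 6 libraries with an addition were below all 3 oxy-Hb libraries, and C3a and C3aRA libraries overlapped. The log2 fold change against oxy-Hb was -0.67 ± 0.19 for C3a (SE; adjusted p = 0.0611, edgeR) and -0.67 ± 0.19 for C3aRA (adjusted p = 0.479), neither past the threshold. Without C3a replicate 2 both passed, at -0.47 (adjusted p = 0.00923) and -0.67 (adjusted p = 0.000764). With the correction for transcript length and GC content the value for C3a was -0.16 (adjusted p = 0.431) and that for C3aRA -0.54 (adjusted p = 0.170). All genes had medians of 0.095 and 0.039 in those corrected comparisons. Between C3a and C3aRA the log2 fold change was -0.0047 ± 0.19 (SE; adjusted p = 0.989).

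Scd2 had 670, 525 and 637 CPM with C3a, 493, 433 and 492 CPM with C3aRA, and 598, 619 and 623 CPM with oxy-Hb. The C3aRA libraries were below every other library, and C3a and oxy-Hb overlapped. Against oxy-Hb the log2 fold change with C3aRA was -0.38 ± 0.11 (SE; adjusted p = 0.479, edgeR), and it passed in a fit of those 2 groups alone (-0.38, adjusted p = 0.00105). C3a over C3aRA gave 0.37 ± 0.11 (adjusted p = 0.0570), and 0.46 without C3a replicate 2 (adjusted p = 6.8e-05). The related rows Scd3 and Scd4 had at most 21 counts in any library.

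Acaca encodes acetyl-CoA carboxylase, which makes malonyl-CoA. It had 81.3, 39.9 and 80.4 CPM with C3a, 82.3, 82.0 and 88.4 CPM with C3aRA, and 79.4, 79.7 and 88.8 CPM with oxy-Hb. The C3a group was set apart by replicate 2, and the log2 fold change against oxy-Hb was -0.30 ± 0.21 with it (SE; adjusted p = 0.392) and -0.04 ± 0.09 without it (adjusted p = 0.859, both edgeR). Acly had 223, 158 and 229 CPM with C3a, 175, 166 and 176 CPM with C3aRA, and 169, 187 and 195 CPM with oxy-Hb. Without C3a replicate 2 it was higher with C3a than with oxy-Hb (log2 0.29 ± 0.08 SE, adjusted p = 0.0142, edgeR), against 0.15 with all 9 (adjusted p = 0.512).

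Elovl6, the elongase of saturated fatty acids, had 62.8, 42.7 and 76.8 CPM with C3a, 42.5, 48.8 and 47.4 CPM with C3aRA, and 51.4, 53.6 and 61.3 CPM with oxy-Hb. C3a replicate 2 was as low as the C3aRA libraries. Without it the log2 fold change of C3a over C3aRA was 0.59 ± 0.11 (SE; adjusted p = 0.000499, edgeR), against 0.39 with all 9 (adjusted p = 0.180). Fads1, a desaturase of polyunsaturated fatty acids, averaged 77.3 ± 4.12 CPM with C3a, 70.2 ± 3.94 CPM with C3aRA and 78.3 ± 2.39 CPM with oxy-Hb (SD, n = 3 each).

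Members with long transcripts were the low ones in C3a replicate 2. Its log2 ratio to the mean of the other C3a libraries ran from -1.02 for Acaca to 0.70 for Ebp. Against the length of the longest annotated transcript, Spearman's rho was -0.71 over the 30 members and -0.42 over 14132 genes, as a description over genes of the same libraries. How far transcript length set the members' results was not tested beyond the fit that corrects for it, where the C3a values of Fasn, Scap and Srebf1 were nearer to 0 and the 6 called sterol enzymes kept their calls, among 9 members in all (8.26% of all genes called). That fit also moved the median of all genes in C3a against oxy-Hb, from 0.00 to 0.095.

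**Figure D4:**
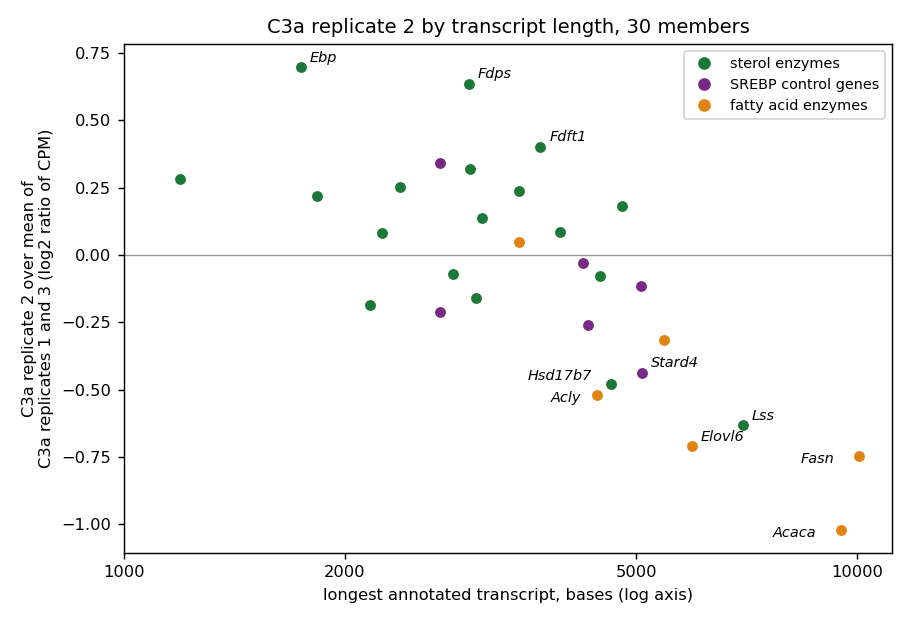
Log2 ratio of CPM of C3a replicate 2 over the mean of C3a replicates 1 and 3 (vertical axis) against the longest annotated transcript in bases (horizontal, log axis) for 30 members coloured by role. The points run from Ebp at 0.70 among short transcripts to Acaca at -1.02 among long ones.

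Without C3a replicate 2, Acat2, Acly and Sqle were higher with C3a than with oxy-Hb (4% of genes tested were higher) and Fasn was lower (5.55% lower). With C3aRA against oxy-Hb, Hsd17b7, Sc5d, Scd2 and Fasn were lower (1.38% lower). With C3a against C3aRA, 11 members were higher (5.97% higher), namely Hmgcs1, Acat2, Sqle, Cyp51, Msmo1, Hsd17b7, Sc5d, Stard4, Scd2, Acly and Elovl6, and Srebf2 was lower (6.54% lower). In fits of 2 groups alone, C3a against oxy-Hb called 0 members (0.72% of genes called), with 6 of 30 at an unadjusted p below 0.05, where 18.3% of all genes were, and C3aRA against oxy-Hb called 5 lower, Hsd17b7, Msmo1, Sc5d, Scd2 and Fasn (1.94% lower).

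The authors' deposited table of C3a against oxy-Hb gave Fasn as lower, with a log2 fold change of -0.67 and an adjusted p of 0.0269, and no other member past 0.05 (1.84% of its genes were lower). The authors' deposited table of C3aRA against oxy-Hb gave 5 members as lower (1.06% of its genes were lower). Adjusted p-values in the authors' deposited table were 6.02e-06 for Scd2, 7.24e-06 for Fasn, 0.00800 for Sc5d, 0.0165 for Hsd17b7 and 0.0169 for Msmo1. These are the 5 members that edgeR called when the C3aRA and oxy-Hb libraries were fitted alone.

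Other genes of the pathway were counted as lists. Of 9 genes that process SREBP or turn over the Insig proteins, 1 was lower with C3a than with oxy-Hb, Syvn1, an ubiquitin ligase of the endoplasmic reticulum, at 8.47 ± 0.522 CPM with C3a and 15.5 ± 4.29 CPM with oxy-Hb (SD, n = 3 each; log2 -0.87, adjusted p = 0.0416, edgeR), where 3.04% of all genes were lower. In the fit of these groups alone Syvn1 did not pass (log2 -0.88, adjusted p = 0.0956). None of the 9 passed in the other 2 comparisons with 9 libraries. With C3a replicate 2 left out, 1 of the 9 was higher with C3a than with C3aRA, where 5.97% of all genes were. It was Rnf145, another ubiquitin ligase of the endoplasmic reticulum (log2 0.37, adjusted p = 0.0229, edgeR). In that fit 1 was higher with C3a than with oxy-Hb, Ufd1 (log2 0.32, adjusted p = 0.0294, edgeR), where 4% of all genes were. Of 13 other sterol, isoprenoid and uptake genes tested, 3 were higher with C3a than with C3aRA, where 2.87% of all genes were, and none passed against oxy-Hb. They included Erg28, a scaffold of sterol enzymes (log2 0.66 ± 0.14 SE, adjusted p = 0.0202, edgeR), and Tmem97, a sterol-responsive membrane protein (log2 0.42 ± 0.12 SE, adjusted p = 0.0495, edgeR). When C3a replicate 2 was left out, C3a against C3aRA had 4 of the 13 higher (5.97% of all genes) and 1 lower (6.54%). In that fit 2 were higher with C3a than with oxy-Hb (4% of all genes) and 1 was lower with C3aRA than with oxy-Hb (1.38%). In fits of 2 groups alone none of the 13 passed in either comparison of C3a (0.72% of all genes called against oxy-Hb and 0.875% against C3aRA). With C3aRA against oxy-Hb 1 was higher and 1 lower, where 338 and 265 of 13625 genes were.

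Of 25 other fatty acid genes tested, 2 were higher with C3a than with C3aRA, where 2.87% of all genes were. Idh1, a cytosolic source of NADPH, averaged 189 ± 25.9 CPM with C3a and 134 ± 8.24 CPM with C3aRA (SD, n = 3 each; log2 0.49, adjusted p = 0.0236, edgeR). Elovl1, the elongase of very long chains, averaged 67.8 ± 9.63 CPM with C3a and 49.1 ± 2.87 CPM with C3aRA (SD, n = 3 each; log2 0.46, adjusted p = 0.0452, edgeR). Against oxy-Hb, Elovl5, the elongase of polyunsaturated chains, was higher with C3a, at 192 ± 8.57 CPM with C3a and 144 ± 7.04 CPM with oxy-Hb (SD, n = 3 each; log2 0.41, adjusted p = 0.0287, edgeR). It was the only one of the 25 called there with 9 libraries, where 0.905% of all genes were higher. Leaving out C3a replicate 2, 4 were higher with C3a than with C3aRA (Hacd3, Hsd17b12, Idh1 and Elovl1), where 5.97% of all genes were. In that fit 5 were higher with C3a than with oxy-Hb (Hsd17b12, Idh1, Acsl1, Acsl4 and Elovl5), where 4% of all genes were. None of the 25 passed with C3aRA against oxy-Hb with 9 libraries, and none in any comparison when 2 groups were fitted alone.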

How the data were processed

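Messenger RNA of BV2 cells was sequenced after isolation with a column kit and a SMARTER library preparation from 1.3 ug of total RNA, per the labels' protocols. The authors deposited 2 tables of raw read counts per Ensembl gene, each with oxy-Hb beside 1 addition. The deposited oxy-Hb counts were identical in both (0 values differed), so all 9 libraries entered 1 fit. Columns of log2 fold changes, p-values and adjusted p-values were also deposited, and are printed as the authors' values. Per the submitters' processing notes the genome was GRCm38 or mm10. How reads were aligned and counted, with which strand setting, and what test the authors ran is not given in the sources used here.

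Counts were filtered with filterByExpr (minimum count 10), leaving 14146 of 22935 genes, scaled with TMM and tested with edgeR 4.0.16 (R 4.3.3), using the robust quasi-likelihood test with 1 coefficient per group and Benjamini-Hochberg adjustment over all genes tested. Calls were made at an adjusted p below 0.05. The biological coefficient of variation was 15.8%. CPM values are TMM-scaled, RPKM divides them by the union of exons in GENCODE M21, and errors are SDs over 3 libraries or SEs of the fit. No library pair agreed within sampling noise by a chi-square of counts. The scripts were tested on simulated data. Whether replicate numbers pair the samples was checked but is not settled with 3 libraries per group, and the main fit used no block. The fit with a block is given under the dependence on processing.

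Members and gene lists were chosen with earlier results of these data known. Every member is counted and given a mean level or a level per library. Values per library are printed for members called in the fits of 9 libraries, of 2 groups alone or without C3a replicate 2, and for Srebf1, Srebf2, Insig1, Scap, Stard4, Sqle, Hmgcs1, Fasn, Acaca and Scd2. Genes of other lists are named only where called. Alternatives were other scalings, other filters, DESeq2 1.42.0, limma-voom (limma 3.58.1) with and without library weights, a fit of 2 groups, a replicate block, a length and GC correction and leaving out each library. Giving counts, medians and sums without C3a replicate 2, and using the authors' adjusted p for calls, were chosen after seeing the data. Some genes of these lists are not reported here by name.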

Additional observations from a re-analysis of the deposited data

Results flagged for a closer look

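For 6 sterol enzymes the effects of the additions differed by a test of the difference itself: the log2 fold change of C3a against oxy-Hb minus that of C3aRA against oxy-Hb passed an adjusted p of 0.05 in edgeR's quasi-likelihood test (n = 3 libraries per group). The difference was 0.81 for Hsd17b7, 0.70 for Acat2, 0.69 for Sc5d, 0.54 for Hmgcs1, 0.54 for Msmo1 and 0.37 for Sqle. In each of the 6, every C3a library was above every C3aRA library. Both effects share the oxy-Hb libraries, and the difference equals the comparison of C3a with C3aRA given above. None of the 6 was past the threshold in either effect alone with all 9 libraries.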

How the results depend on the processing

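Fits varied in what they called while the direction of the 6 called sterol enzymes held in all of them. For C3a against oxy-Hb, 558 genes became 1033 with no count filter, 1346 with DESeq2, 1606 with limma-voom and library weights, 99 with 2 groups alone, 992 with the length and GC correction, and 54 to 1638 leaving out 1 library. Its members called, 0 in the 9-library fit, were 1 with total count scaling (698 of 14146 genes called) or limma-voom (626 genes). There were 2 with no count filter (1033 genes) or the length and GC correction (992 of 14132 genes). There were 4 with DESeq2 (10.1% of all genes), 7 with library weights (1606 genes) and 0 to 6 leaving out 1 library. For C3aRA against oxy-Hb, 0 genes became 8 with no count filter, 19 with DESeq2, 401 with library weights, 603 with 2 groups alone and 0 to 475 leaving out 1 library, and 0 members became 4 with library weights, 5 with 2 groups alone and 0 to 4 leaving out 1 library. For C3a against C3aRA, 876 genes became 1559 with DESeq2, 1959 with library weights, 118 with 2 groups alone and 53 to 1827 leaving out 1 library, and 6 members became 12 with library weights, 1 with 2 groups alone and 0 to 12 leaving out 1 library. The 5 members of the test for any difference became 8 with DESeq2, 13 with library weights, 10 with the length and GC correction and 0 to 12 leaving out 1 library. The share of all genes called by that test with DESeq2, library weights or the correction is not given here, so those counts cannot be set against it. Why the fits varied was not tested.

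With the replicate number as a block, 835, 0 and 1210 genes and 2, 0 and 7 members were called in C3a against oxy-Hb, C3aRA against oxy-Hb and C3a against C3aRA. Deviations of same-numbered libraries correlated at -0.04 to 0.17, and those of different-numbered libraries at -0.14 to 0.08. In C3a against oxy-Hb the same-numbered values were 0.03, 0.17 and 0.11. The main fit did not use the numbers, and whether they pair the samples is not settled.

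Direction turned for Srebf2, at -0.26 with 9 libraries in C3a against oxy-Hb and 0.069 with the length and GC correction, and for members with smaller log2 fold changes. With that correction the median over all genes in C3a against oxy-Hb moved from 0.00 to 0.095. In that comparison Scd2 was 0.16 with the same correction and 0.067 with library weights. Leaving out 1 library, Scd2 ran from -0.067 to 0.086 and Elovl6 from -0.072 to 0.33. For C3aRA against oxy-Hb, Scap was -0.047 with total count and -0.0014 with upper quartile scaling and -0.060 to 0.12 leaving out 1 library, Acaca -0.034 with total count scaling and -0.0017 to 0.089, and Srebf2 -0.00060 to 0.14 leaving out 1 library. For C3a against C3aRA, Srebf1 was -0.0093 with total count scaling and -0.063 to 0.094 leaving out 1 library. Fasn was 0.011 with upper quartile scaling, 0.22 with library weights, 0.38 with the length and GC correction and -0.19 to 0.20 leaving out 1 library. Depth gives the least precision for Fdps and Tm7sf2, the members with the lowest counts.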
